A study of Mus musculus with 54 samples.

Results

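The 12 arrays described here are the prieurianin arrays of a 3T3-L1 time course at 96, 144, 240 and 288 h (4 arrays), set against the DMSO arrays (4) and the untreated control arrays (4) of the same times, out of 54 arrays in all. They were chosen by the arm and time in their labels. The 192 h arrays of all 3 arms were left out because the prieurianin array of that time departed from the rest in its measured values. That choice rests on the data, and results are given with those 3 arrays as well. 3T3-L1 is a mouse line of fibroblast-like preadipocytes able to differentiate into adipocytes. The cells came from ATCC and were kept at 37 °C in 5% CO2. The prieurianin arm received 2 µM prieurianin, a limonoid (a plant triterpenoid), the DMSO arm received 0.5% DMSO, and the untreated control underwent its normal differentiation with neither. The arms share the cell line, the times and the array design, and each arm is represented by 1 array at each time. The labels give no medium or differentiation stimulus, do not say whether the prieurianin arm also contained DMSO, and do not say whether the times came from separate cultures. Times therefore stand in for replicates, neighbouring times are not independent, and every p-value below measures the spread between these arrays, which may be technical.

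Differentiating 3T3-L1 cells switch on a programme led by the nuclear receptor PPARγ and by C/EBPα, which bind and activate the genes of fat storage, while the actin stress fibres of the preadipocyte are taken apart. In cells that keep those fibres, polymerised actin releases the coactivators MRTF and YAP, which act through the DNA-binding partners SRF and TEAD on genes of contraction, adhesion and matrix. The same cultures also exit from the cell cycle after an early round of division. Genes of G2 and mitosis are repressed in quiescent cells through a promoter element called the cell cycle homology region (often TTTGAA). The CCAAT box, a different promoter element, was searched for as well.

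The sequences of 5 promoters follow because they belong to genes at the centre of the 2 patterns below, the contractile and adhesion genes that were high on all 4 prieurianin arrays and the mitosis and interferon genes that differed between windows. Each is the RefSeq window (build GRCm38.p6) from 250 bases before to 50 bases after a gene's start, printed on the gene's strand. Myl9 lies at chr2:156775214-156775513 on the plus strand, Acta1 at chr8:123894726-123895025 on the minus strand, Ankrd1 at chr19:36119795-36120094 on the minus strand, Top2a at chr11:99024140-99024439 on the minus strand and Gbp3 at chr3:142559794-142560093 on the plus strand. Capitals mark matches, on either strand, to the CArG box (the element SRF binds) in Myl9 and Acta1, to GGAATG (the core of a TEAD site) in Ankrd1, to the CCAAT box, as well as to the element TTTGAA, in Top2a and to the core of the interferon-stimulated response element (TTTC, any 2 bases, TTTC; 2 matches overlap) in Gbp3.
Myl9: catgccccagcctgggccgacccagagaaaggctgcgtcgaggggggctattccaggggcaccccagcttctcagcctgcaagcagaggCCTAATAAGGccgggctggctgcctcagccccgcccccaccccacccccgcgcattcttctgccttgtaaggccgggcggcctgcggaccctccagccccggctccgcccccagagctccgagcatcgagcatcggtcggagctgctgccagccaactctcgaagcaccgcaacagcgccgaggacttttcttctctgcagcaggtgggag
Acta1: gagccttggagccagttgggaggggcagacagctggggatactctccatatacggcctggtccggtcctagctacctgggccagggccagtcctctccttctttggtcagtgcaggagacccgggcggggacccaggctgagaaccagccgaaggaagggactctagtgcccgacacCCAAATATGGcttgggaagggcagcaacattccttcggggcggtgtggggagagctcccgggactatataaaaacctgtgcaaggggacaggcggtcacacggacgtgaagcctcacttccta
Ankrd1: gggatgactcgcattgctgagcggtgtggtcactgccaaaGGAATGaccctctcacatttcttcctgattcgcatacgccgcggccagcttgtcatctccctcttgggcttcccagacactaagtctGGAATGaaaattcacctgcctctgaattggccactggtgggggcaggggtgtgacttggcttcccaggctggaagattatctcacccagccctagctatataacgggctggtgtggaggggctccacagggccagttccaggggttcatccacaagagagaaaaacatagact
Top2a: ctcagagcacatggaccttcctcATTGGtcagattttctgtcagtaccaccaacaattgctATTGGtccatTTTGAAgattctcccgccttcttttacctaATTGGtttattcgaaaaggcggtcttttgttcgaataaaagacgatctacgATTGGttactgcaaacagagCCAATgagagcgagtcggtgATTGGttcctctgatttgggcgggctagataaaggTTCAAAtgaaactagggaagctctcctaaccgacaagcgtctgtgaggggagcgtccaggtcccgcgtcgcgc
Gbp3: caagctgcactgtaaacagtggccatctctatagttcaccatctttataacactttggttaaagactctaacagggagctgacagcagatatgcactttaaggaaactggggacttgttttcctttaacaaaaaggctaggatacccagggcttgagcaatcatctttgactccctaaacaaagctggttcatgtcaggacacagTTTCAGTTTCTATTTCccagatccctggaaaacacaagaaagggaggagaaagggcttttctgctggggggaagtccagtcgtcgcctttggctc

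The CArG match began at base -161 from the start of Myl9 and at -73 from that of Acta1, and the GGAATG matches of Ankrd1 began at -210 and -123. Every printed window held a match to its element. Gbp3 had another window, not printed above, that held no match to the interferon element. The window of Psmb9, an interferon list gene named below, was also searched, held no match and is not printed. Of all 32851 windows in the RefSeq table, 1.63% held a CArG box, 14.7% GGAATG, 37.4% a CCAAT box, 17.9% the element TTTGAA and 3.44% the interferon element. The list counts below are per gene, with a match in any of its windows. Among the 10278 tested genes with a window, the shares counted that way were 1.6%, 14.8%, 42.3%, 15.3% and 3.76% in the same order. Among the contractile genes named below, 3 of 19 with a window held a CArG box (Acta1, Cnn2 and Myl9) and 8 of 19 held GGAATG. Among SRF and YAP targets, 10 of 13 genes with a window held GGAATG. In the list of G2 and mitosis genes, 16 of 18 genes with a window held CCAAT and 14 of 18 held TTTGAA. In the interferon list 14 of 25 genes with a window held the interferon element. These matches are descriptions of the printed letters, not of binding. Of the 42 genes named for the size of their change, 30 had a window; Actg2, Apoc1, Ccn2, Ces1f, Ces3, Glipr1, Gpd1, Krt16, Megf10, Mrap, Stmn4 and Tagln had none.

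A level below is log2(intensity + 16) after quantile normalisation, and a log2 difference is the prieurianin level minus the mean of both controls, with time as a block. Each ± is the standard error of the limma fit to 4 prieurianin and 8 control arrays. Over the 12 arrays the deposited median intensity ran between 88 and 144 and 100 to 132 probes per array were saturated; the number of arrays limits the precision. Arrays of the prieurianin arm correlated with each other at a mean r of 0.967 to 0.975 across genes and with the 8 control arrays at 0.939 to 0.969, where genes are not independent replicates. The 192 h prieurianin array correlated at 0.936 with the 4 prieurianin arrays and at 0.959 with the 8 controls. On that array the contractile genes Actg2, Myl9 and Acta1 were 5.55, 5.10 and 4.92 above the mean of the 192 h controls, while Ccn2 differed by -0.29 and the fat genes Cidec and Gpd1 lay 1.15 and 1.81 above.

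Over the 4 times, 2738 of 12792 genes tested passed an adjusted p of 0.05 (limma with Benjamini-Hochberg adjustment), which is 21.4% of them. Of these, 1333 (10.4%) were higher and 1405 (11%) lower with prieurianin, and 248 in each direction differed by over 2-fold. List counts over the 4 times are to be read against those 10.4% and 11%. The prieurianin array lay above both controls at all 4 times for 1316 genes (10.3%) and below both for 1464 (11.4%). For 448 genes (3.5%) the 4 prieurianin arrays lay above all 8 control arrays, and for 599 (4.68%) below all 8. Under median centring in place of quantile normalisation, 814 genes were higher and 1762 lower, and 637 and 1957 with the values as deposited, where the median over all genes moved by -0.10 on the log2 scale, against 0.01 in the main setting. With the 192 h arrays the total was 1019 (565 higher, 454 lower), and 508 of the higher genes (38.1%) and 425 of the lower genes (30.2%) were called there too. Leaving out 1 time gave totals of 2298 without 96 h, 1568 without 144 h, 1159 without 240 h and 1681 without 288 h.

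Against DMSO alone 908 genes were higher (7.1%) and 1005 lower (7.86%), 15% together, and against the untreated control alone 1202 were higher (9.4%) and 1121 lower (8.76%), 18.2% together. These comparisons share the prieurianin arrays. The genes called higher against both numbered 677, which is 74.6% of those against DMSO and 56.3% of those against the untreated control, and those called lower against both numbered 766 (76.2% and 68.3%). Between DMSO and the untreated control, limma called 0 genes (0%), with 1253 at an unadjusted p under 0.05; 445 were called when the spread was shared over 51 arrays, 108 without 288 h and 1 without 240 h.

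At 96-144 h 657 genes were higher (5.14%) and 593 lower (4.64%), 9.77% together, and at 240-288 h 1617 were higher (12.6%) and 1737 lower (13.6%), 26.2% together. The genes higher in both windows numbered 380 (57.8% of the earlier window and 23.5% of the later), and those lower in both 361 (60.9% and 20.8%). The difference between the windows was called for 669 genes (5.23%), 310 more positive (2.42%) and 359 more negative (2.81%) at 240-288 h. That count rests on all 4 times: it was 16 without 96 h, 58 without 144 h, 146 without 240 h and 0 without 288 h (1910 at an unadjusted p under 0.05). Each window difference named below failed in limma without 288 h.

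Genes of smooth muscle contraction were higher on all 4 prieurianin arrays, and several were the most changed genes of the whole comparison. In the contractile list 16 of 23 members tested were called higher and 0 lower, with a median log2 difference of 1.71 against 0.01 over all genes; the counts were also 16 and 0 with the 192 h arrays, under median centring and with the values as deposited. Actg2, the smooth muscle γ-actin, had levels of 15.02, 14.8, 13.74 and 13.74 on the prieurianin arrays, against 6.39, 6.24, 6.56 and 6.53 on the DMSO arrays and 6, 6.24, 6.86 and 6.68 on the untreated arrays at 96, 144, 240 and 288 h. The lowest prieurianin array was far above the highest control array, and the log2 difference was 7.89 ± 0.29, adjusted p = 2.2e-06. Myl9 encodes a light chain of smooth muscle myosin and was at 14.72, 14.24, 13.95 and 14.16 in the prieurianin arm, 7.18, 6.93, 8.59 and 8.42 in the DMSO arm and 6.64, 6.19, 8.52 and 8.96 in the untreated arm. The prieurianin arrays were high at every time and the controls were higher at 240 and 288 h than before, with a difference of 6.59 ± 0.41, adjusted p = 3e-05. Acta1, the skeletal muscle α-actin, measured 9.59, 9.57, 8.12 and 9.54 with prieurianin, 5.07, 5.86, 5.75 and 5.59 with DMSO and 4.98, 5.65, 5.62 and 5.69 in untreated cells. The 240 h prieurianin array was lowest of its arm and still above every control (3.68 ± 0.27, adjusted p = 6.2e-05).

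Tagln (transgelin, an actin-binding protein of smooth muscle) was among the most even of these genes. Its levels were 9.49, 9.91, 9.95 and 10.06 on the prieurianin arrays, against 6.07, 5.94, 6.33 and 6.56 on the DMSO arrays and 6.44, 6.36, 6.56 and 6.26 on the untreated arrays, without overlap, and it differed by 3.54 ± 0.13, adjusted p = 2.2e-06. Acta2, the smooth muscle α-actin, was saturated on all 4 prieurianin arrays, so that its level there is a lower bound. It was at 16, 16, 16 and 16 in the prieurianin arm, 12.1, 11.05, 14.67 and 14.46 in the DMSO arm and 12.43, 11.31, 14.71 and 14.68 in the untreated arm, at least 7.08-fold higher with prieurianin (adjusted p = 0.0047). Its 4 probes gave log2 differences of 0.80, 4.28, 6.32 and 2.82, the last of them the tested one. Smtn (smoothelin) and Mylk (myosin light chain kinase) differed by 2.44 ± 0.18, adjusted p = 7e-05 and 2.16 ± 0.57, adjusted p = 0.026; Mylk did not pass without 96 h or without 144 h.

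**Figure D1:**
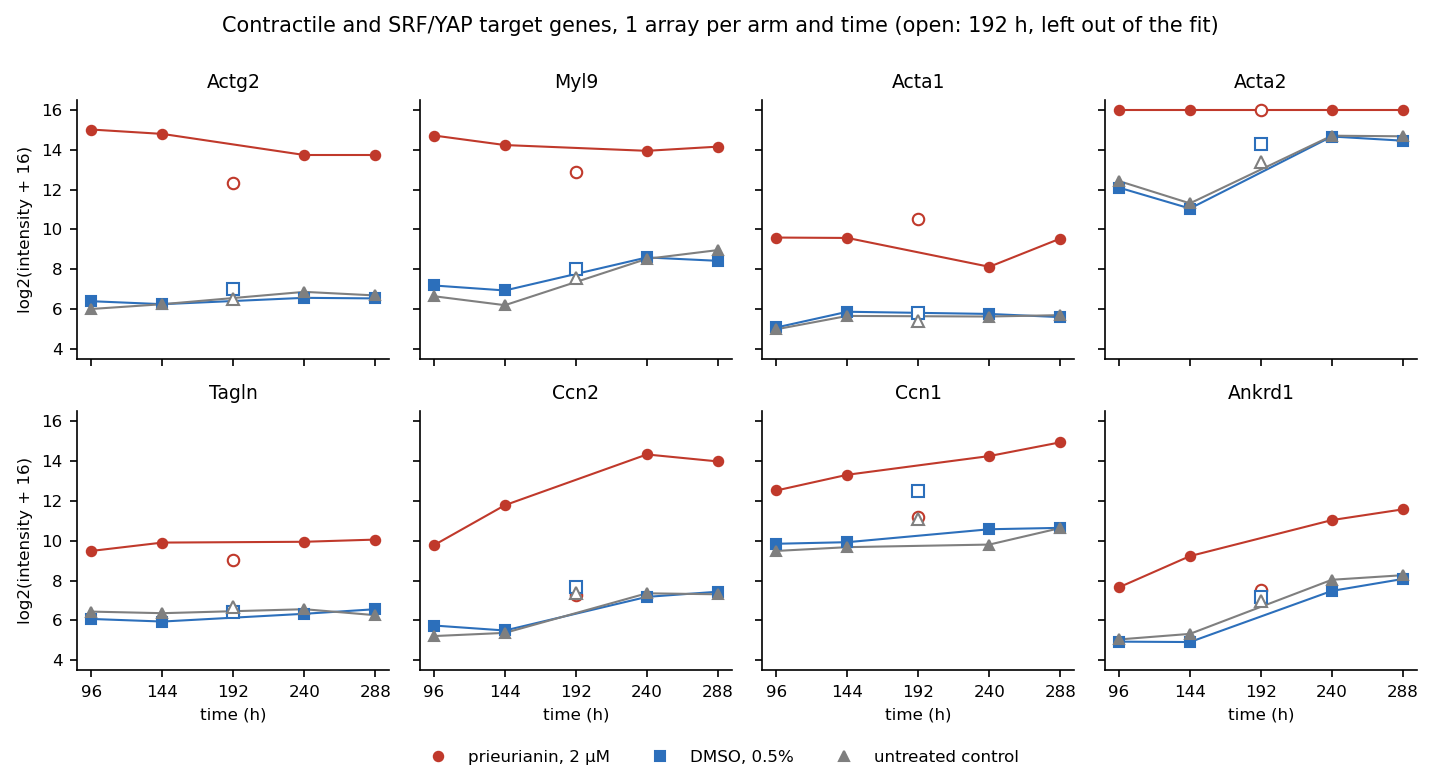
Log2 levels of contractile, SRF and YAP target genes on each array (y axis) against time in hours (x axis), prieurianin first, then DMSO and untreated control, with the 192 h arrays shown apart. The prieurianin arrays of Actg2 sit between 13.74 and 15.02, above control arrays between 6 and 6.86.

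The contractile genes were closer to the controls in the later window. Relative to each gene's mean over the arrays, the list's median level was 0.9, 0.97, 1.08 and 0.9 on the prieurianin arrays in time order. It was -0.84, -0.82, -0.3 and -0.23 with DMSO and -0.76, -0.73, -0.07 and -0.27 in untreated cells. At the list median the controls were thus higher late, and the prieurianin arrays were not lower, while single genes below varied. The list had 16 of 23 called higher at 96-144 h (median 2.17) and 16 at 240-288 h (median 1.08; 10 without 240 h, 9 without 288 h), and the difference between windows was negative and called for 8 members and positive for 0. That count was 2, 2, 3 and 0 without 96, 144, 240 and 288 h in turn, and 5 with the 192 h arrays. For Mylk the difference was 3.87 at 96-144 h and 0.45 at 240-288 h, a difference between windows of -3.41 ± 0.21, adjusted p = 0.0013. Its prieurianin levels of 14.05 and 13.59 in the earlier window lay far above the controls, and those of 11.66 and 11.42 in the later window lay just above theirs, a difference that did not pass (adjusted p = 0.061). Actg2 (-1.61) and Myl9 (-2.31) had window differences of the same sign, each passing, while Tagln was at 0.08 (adjusted p = 0.88). Acta2 is counted among the 8, but its prieurianin level was saturated at every time, so only its controls could move and its window difference says nothing of the prieurianin level. Tpm4, another of the 8 and named after its values were seen, was saturated on 2 prieurianin arrays.

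Genes of the cytoplasmic actin skeleton were higher by smaller amounts. Of 22 tested, 17 were called higher and 0 lower (median 0.67), and 11 and 0 with the 192 h arrays. Tmsb4x, the actin-sequestering peptide thymosin β4, was at 10.88, 9.92, 9.59 and 10.22 with prieurianin, 7.92, 7.63, 7.81 and 7.3 with DMSO and 6.95, 6.59, 6.83 and 7.69 in untreated cells. The log2 difference of Tmsb4x was 2.81 ± 0.23, adjusted p = 0.0001. Its prieurianin arrays were all above the controls. Flna (filamin A, a crosslinker of actin filaments) and Fhl2 (a LIM protein that binds actin-linked receptors and transcription factors) differed by 2.05 ± 0.18, adjusted p = 0.00013 and 2.04 ± 0.26, adjusted p = 0.00092. Actb was not analysed here.

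Targets of SRF and YAP were also higher: 12 of 16 tested were called higher and 0 lower (median 1.06), with 9 and 0 in the fit with 192 h. Their median was 1.01 at 96-144 h and 1.16 at 240-288 h, a median window difference of 0.08, against -0.56 for the contractile list. Ccn2 (connective tissue growth factor) was at 9.78, 11.79, 14.34 and 13.99 on the prieurianin arrays, against 5.74, 5.49, 7.18 and 7.44 on the DMSO arrays and 5.21, 5.37, 7.36 and 7.31 on the untreated arrays. Ccn1, a related matricellular protein, was at 12.53, 13.32, 14.26 and 14.95 in the prieurianin arm, 9.85, 9.93, 10.58 and 10.65 in the DMSO arm and 9.49, 9.68, 9.81 and 10.64 in the untreated arm. Both were above all controls, and both climbed from 144 to 240 h on the prieurianin arrays. They differed by 6.09 ± 0.36, adjusted p = 2.3e-05 and 3.69 ± 0.21, adjusted p = 2e-05. Ankrd1, an ankyrin-repeat cofactor of muscle, measured 7.66, 9.23, 11.04 and 11.58 with prieurianin, 4.93, 4.91, 7.48 and 8.08 with DMSO and 5.04, 5.32, 8.04 and 8.27 in untreated cells. Its prieurianin array was above both controls at each time, as the choice of the largest lasting rises required (3.37 ± 0.19, adjusted p = 2e-05 in limma). The groups overlapped, because both 288 h controls and the 240 h untreated array exceeded the prieurianin level of 96 h. Lmcd1, a LIM protein of muscle, was at 9.49, 10.27, 10.9 and 11.04 on the prieurianin arrays, against 7.39, 7.23, 7.84 and 8.07 on the DMSO arrays and 8.05, 7.68, 8.29 and 8.45 on the untreated arrays. For Lmcd1 this was a difference of 2.55 ± 0.17, adjusted p = 4.5e-05. These differences were small or negative at 192 h, where the prieurianin array differed from the controls by -0.29 for Ccn2, -0.61 for Ccn1, 0.5 for Ankrd1 and -1.28 for Lmcd1. With that time included they fitted at 4.81, 2.83, 2.79 and 1.78, all still passing.

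Integrins and focal adhesion adaptors were divided. Of 20 tested, 8 were higher and 3 lower (7 and 1 with 192 h, 6 and 1 without 144 h or 288 h, 7 and 1 without 240 h). Itga5, the α5 chain of the fibronectin receptor, was at 11.84, 11.78, 12.3 and 11.93 in the prieurianin arm, 9.68, 9.36, 10.31 and 9.99 in the DMSO arm and 9.74, 9.77, 10.14 and 10.04 in the untreated arm. The groups did not overlap (2.08 ± 0.1, adjusted p = 9.6e-06). Lims2, an adaptor of integrin-linked kinase, differed by 1.69 ± 0.09, adjusted p = 1.2e-05. Itga6, the α6 chain of laminin receptors, was lower (-1.27 ± 0.11, adjusted p = 0.00012). The other 2 that fell, named after their values were seen, were Itga7 (-0.62) and the adaptor Tns1 (-0.53), each lost without 144 h, 240 h or 288 h.

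Matrix genes were higher in part of the list. Of 25 fibrillar collagens and matrix proteins, 9 were higher and 1 (Col6a2, -0.63, lost without 240 h or 288 h) lower, a median of 0.29, against 4 and 0 with 192 h. Col8a1, a short-chain collagen of vessel walls, differed by 1.91 ± 0.13, adjusted p = 4.5e-05, Tnc (tenascin C, a matrix protein of wounds) by 1.69 ± 0.29, adjusted p = 0.0039 and Fbn1 (fibrillin 1, a microfibril protein) by 1.31 ± 0.16, adjusted p = 0.00069. Tnc had levels of 8.47, 8.56, 10.68 and 10.93 with prieurianin, 7.57, 7.54, 7.92 and 8.37 with DMSO and 8, 7.39, 8.12 and 8.82 in untreated cells. The prieurianin array was above both controls at each time, by more in the later window. Its window difference of 1.61 passed. Lum (lumican, a collagen-binding proteoglycan) had a window difference of -2.7. Of 15 basement membrane genes 1 was higher and 4 lower, 6.67% and 26.7% against 10.4% and 11% of all genes. The counts were 1 and 1 without 240 h or 288 h, and 0 and 3 with 192 h. Lama5 was at 1.15, Sparcl1 at -1.59 and Lamb3 at -0.72. Sparcl1 was lost without 240 h or 288 h, and Lamb3 also without 144 h.

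Of 23 matrix proteases and TIMPs, 7 were higher and 4 lower (3 and 1 with 192 h; 7 and 1 without 240 h, 8 and 2 without 288 h). Timp3 (a protease inhibitor held in the matrix), Plaur (the urokinase receptor) and Plat (tissue plasminogen activator) differed by 2.02 ± 0.29, adjusted p = 0.0019, 1.91 ± 0.19, adjusted p = 0.00028 and 1.58 ± 0.09, adjusted p = 2e-05. The Plat levels of 11.73, 11.92, 12.48 and 13.01 on the prieurianin arrays, against 10.23, 10.05, 10.93 and 11.36 on the DMSO arrays and 10.41, 10.13, 11.04 and 11.48 on the untreated arrays did not overlap. Adamts15, which cuts aggrecan and versican, differed by -1.76 between windows.

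Other genes with large rises belong to no shared list. Prnd, which encodes the prion-like protein doppel, was at 11.89, 12.31, 11.52 and 10.98 in the prieurianin arm, 5.74, 5.97, 6.54 and 6.59 in the DMSO arm and 5.15, 6.23, 6.64 and 6.85 in the untreated arm, a difference of 5.46 ± 0.32, adjusted p = 2.1e-05. No control array came near the prieurianin arrays. At 192 h, however, it was level with the controls (0.24). Glipr1 (a secreted CAP-family protein) was at 9.95, 9.82, 10.17 and 9.83 with prieurianin, 7.09, 7.25, 6.78 and 6.97 with DMSO and 7.2, 6.74, 6.9 and 6.91 in untreated cells (2.96 ± 0.13, adjusted p = 4.9e-06) and remained apart at 192 h (1.28). Apol10b (an apolipoprotein L) differed by 2.73 ± 0.32, adjusted p = 0.00062, Pilra (an inhibitory receptor of myeloid cells) by 2.64 ± 0.13, adjusted p = 9.6e-06 and Stmn4 (a stathmin, which binds tubulin) by 2.53 ± 0.18, adjusted p = 6.2e-05; all 3 were without overlap.

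**Figure D2:**
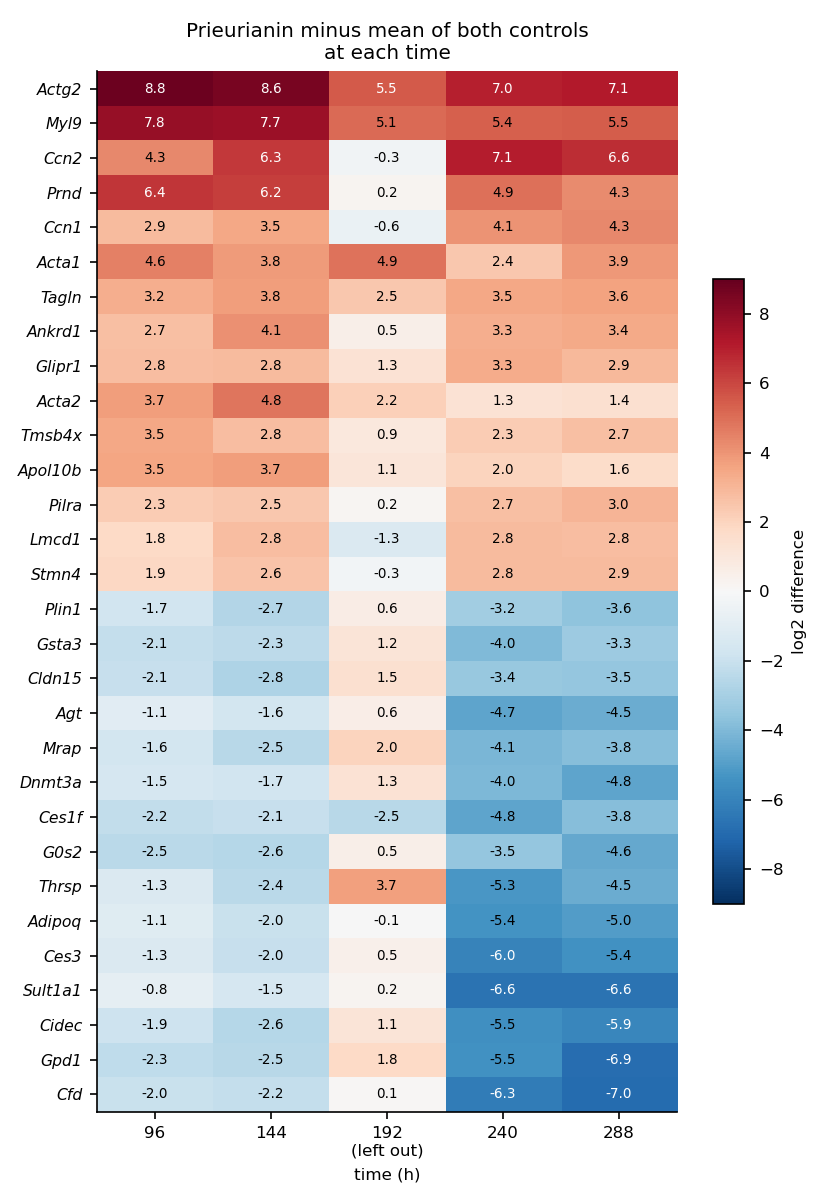
Log2 difference between the prieurianin array and the mean of the 2 control arrays of the same time (colour scale, log2 units) for the 15 largest lasting rises and the 15 largest lasting falls (rows) at 5 times in hours (columns). The 192 h column keeps the sign of the others for Actg2, Myl9 and Acta1 (5.55, 5.10 and 4.92) and not for Cidec and Gpd1 (1.15 and 1.81).

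Regulators of fat cell identity were lower with prieurianin. Of 16 fat cell transcription factors tested, 0 were higher and 8 lower (median -0.33); 0 and 5 without 144 h or 240 h, and 0 and 3 with the 192 h arrays. Pparg, the master regulator, was at 12.62, 12.64, 12.41 and 11.39 on the prieurianin arrays, against 13.43, 14.1, 13.83 and 13.67 on the DMSO arrays and 13.72, 14.15, 13.83 and 13.76 on the untreated arrays. Each prieurianin array lay below all controls (-1.55 ± 0.18, adjusted p = 0.00062). Cebpa, its partner, was at 9.4, 9.23, 7.72 and 7.62 in the prieurianin arm, 9.93, 10.75, 10.41 and 10.26 in the DMSO arm and 10.41, 11.2, 10.44 and 10.56 in the untreated arm. The gap widened after 144 h (-2 ± 0.28, adjusted p = 0.0017). Nr1h3 (LXRα, a sterol-sensing receptor) differed by -2.01 ± 0.22, adjusted p = 0.00042. Cebpb, which acts early in differentiation, had a difference of -0.25 that did not pass (adjusted p = 0.19), and Srebf1 was too dim to test. Klf5, an early activator of Pparg, had a window difference of 2.02 ± 0.28, adjusted p = 0.013, with -0.53 at 96-144 h (not passing) and 1.49 at 240-288 h.

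Genes of the lipid droplet were lower. Of 15 droplet coats and lipases tested, 11 were lower and 1 higher (Hilpda, a lipase inhibitor induced by hypoxia, 0.72, lost without 144 h, 240 h or 288 h), with a median of -1.47. With the 192 h arrays 8 were lower. Cidec, which fuses droplets, was at 12.96, 13, 9.58 and 8.78 with prieurianin, 14.74, 15.69, 15.15 and 14.82 with DMSO and 14.89, 15.46, 15.01 and 14.46 in untreated cells. The prieurianin arrays were below every control (-3.95 ± 0.59, adjusted p = 0.002). Plin1 (perilipin 1, the droplet coat) was at 6.73, 6.99, 6.85 and 6.54 on the prieurianin arrays, against 8.31, 9.42, 9.9 and 10.05 on the DMSO arrays and 8.61, 9.89, 10.12 and 10.23 on the untreated arrays. They were nearly level on the 4 prieurianin arrays and below every control (-2.79 ± 0.24, adjusted p = 0.00013). G0s2, an inhibitor of the lipase ATGL, differed by -3.27 ± 0.29, adjusted p = 0.00015, without overlap. In bulk RNA, fewer fat cells and less RNA of these genes per cell cannot be told apart.

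**Figure D3:**
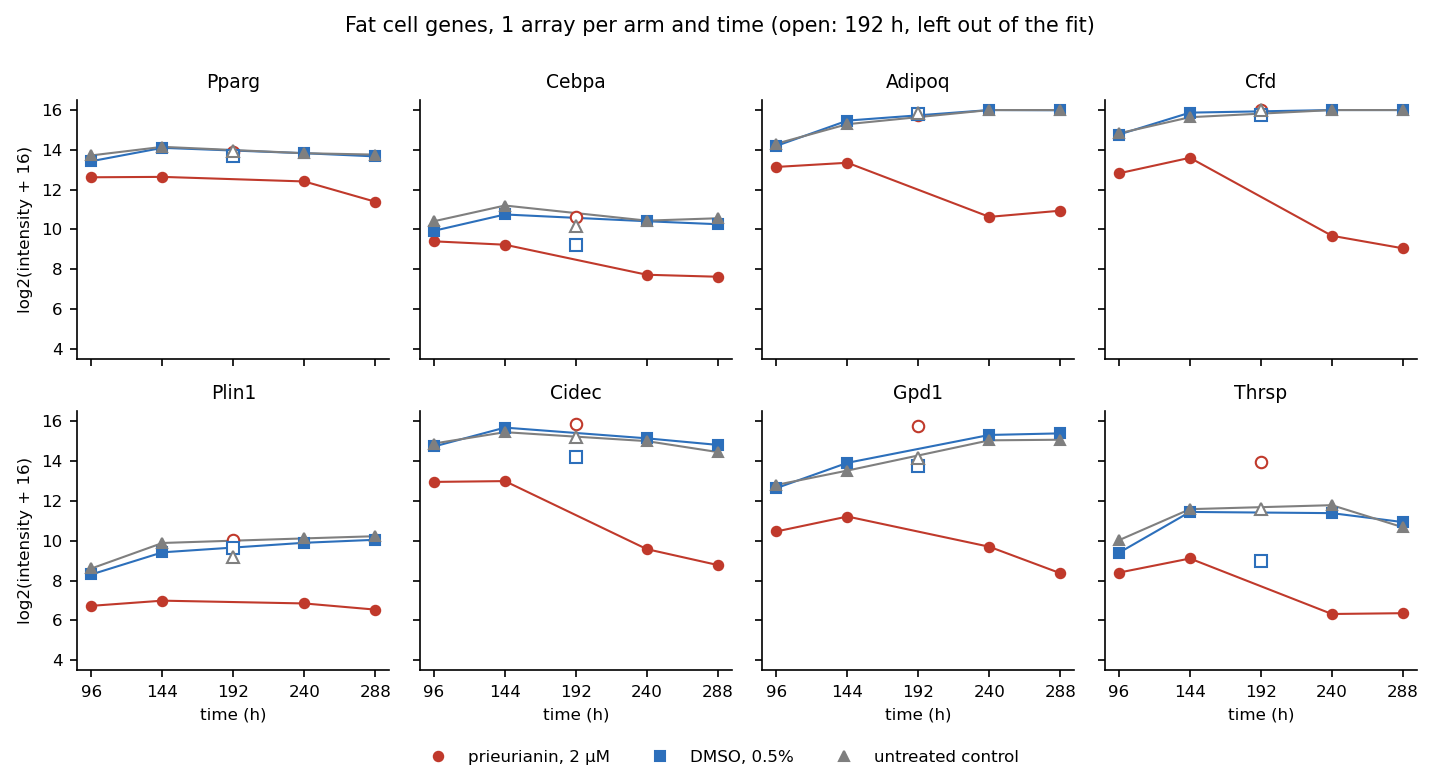
Log2 levels of fat cell genes on each array (y axis) against time in hours (x axis), prieurianin first, then DMSO and untreated control, with the 192 h arrays shown apart. The prieurianin arrays of Cidec sit between 8.78 and 13, below control arrays between 14.46 and 15.69.

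Of 14 genes of triglyceride synthesis, 9 were lower and 1 higher (Lpin3, 0.77), a median of -1.32, but 0 were lower and 1 higher with the 192 h arrays. Gpd1, which makes glycerol 3-phosphate, was at 10.47, 11.22, 9.7 and 8.37 in the prieurianin arm, 12.65, 13.92, 15.32 and 15.4 in the DMSO arm and 12.81, 13.53, 15.05 and 15.08 in the untreated arm. The controls climbed through the times while the prieurianin arrays ended at their lowest (-4.28 ± 0.65, adjusted p = 0.0023). Lpin1, a phosphatidate phosphatase, and Acsl1, which activates fatty acids, differed by -1.96 ± 0.23, adjusted p = 0.00062 and -2.46 ± 0.34, adjusted p = 0.0015. At 192 h Gpd1, Lpin1 and Acsl1 were 1.81, 1.76 and 1.64 above the controls.

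Among 15 genes of fatty acid uptake and binding, 4 were lower and 1 (Acsl3, 0.98) higher, against 1 and 1 with 192 h. Cd36, the fatty acid translocase, was at 8.99, 9.82, 8.94 and 8.92 with prieurianin, 10.28, 11.24, 11.44 and 11.31 with DMSO and 10.4, 10.89, 10.31 and 11.03 in untreated cells. Every prieurianin array was below all controls (-1.7 ± 0.2, adjusted p = 0.00069). Fabp5, a fatty acid carrier, differed by -1.72 ± 0.18, adjusted p = 0.00037. Lpl (lipoprotein lipase) was saturated on all 4 DMSO arrays and on 3 untreated arrays, so its fall of at least 1.31-fold (adjusted p = 0.021) is a lower bound, and it did not pass without 240 h or without 288 h. A second, dimmer Lpl probe had a log2 difference of -1. Fabp4, the adipocyte carrier, had a difference of -0.67 (adjusted p = 0.071). Its levels were 13.14, 13.38, 12.02 and 11.99 on the prieurianin arrays, against 13.92, 14.01, 13.31 and 13.58 on the DMSO arrays and 12.71, 13.26, 12.14 and 13.5 on the untreated arrays. The untreated arrays at 96 and 144 h lay below the prieurianin arrays of those times.

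Of 14 genes of fatty acid synthesis, 7 were lower and 1 (Fads1, 0.42, lost without 144 h or 288 h) higher, and 0 and 0 were called with the 192 h arrays. Thrsp, a regulator of lipogenesis, was at 8.4, 9.11, 6.32 and 6.36 in the prieurianin arm, 9.4, 11.45, 11.39 and 10.94 in the DMSO arm and 10.03, 11.59, 11.79 and 10.68 in the untreated arm. Every prieurianin array was below all controls (-3.36 ± 0.53, adjusted p = 0.0027), but the 192 h array was 3.66 above them. Scd1, which desaturates stearate, differed by -2.14 ± 0.34, adjusted p = 0.0026 and was saturated on 3 DMSO and 2 untreated arrays. Fasn, the fatty acid synthase, differed by -1.09 ± 0.11, adjusted p = 0.00032, with -1.15 in the earlier and -1.03 in the later window; with 192 h its fit was -0.3 (adjusted p = 0.74).

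Secreted products of fat cells were lower too, 5 of 11 adipokines tested and 0 higher (0 and 3 without 240 h and with 192 h). Cfd (adipsin, a complement protease of adipocytes) was at 12.82, 13.6, 9.68 and 9.05 with prieurianin, 14.77, 15.87, 16 and 16 with DMSO and 14.83, 15.64, 16 and 16 in untreated cells. It was saturated on 2 arrays of each control (-4.35 ± 0.76, adjusted p = 0.0043). The prieurianin levels at 240 and 288 h were far below those at 96 and 144 h. Adipoq (adiponectin) was at 13.14, 13.35, 10.63 and 10.94 on the prieurianin arrays, against 14.2, 15.47, 16 and 15.99 on the DMSO arrays and 14.31, 15.29, 16 and 16 on the untreated arrays (-3.39 ± 0.61, adjusted p = 0.0052), with the same break after 144 h and saturation on 2 arrays of each control. Agt (angiotensinogen) differed by -2.98 ± 0.55, adjusted p = 0.0056 and did not pass without 240 h. Lep was too dim to test and Retn was not analysed here.

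Of 11 genes of insulin and adrenergic response tested, 8 were lower and 0 higher (median -0.69; 4 without 240 h and with 192 h, 6 without 144 h or 288 h). Mc2r (the ACTH receptor) differed by -2.2 ± 0.36, adjusted p = 0.0032, Ffar2 (a receptor for short-chain fatty acids) by -1.99 ± 0.47, adjusted p = 0.016 and Hcar2 (a receptor for hydroxybutyrate) by -1.78 ± 0.22, adjusted p = 0.00072. Slc2a4 (GLUT4, the insulin-regulated glucose transporter) differed by -1.54 ± 0.28, adjusted p = 0.0054. Ffar2 and Slc2a4 did not pass without 240 h.

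Mitochondrial genes were also lower in part. Of 19 genes of fatty acid oxidation 12 were lower and 1 (Cpt1a, 0.77, lost without 144 h or 240 h) higher, a median of -0.53, and with the 192 h arrays 1 was lower and 0 higher; 9, 9 and 8 were lower without 144, 240 and 288 h. Crat (carnitine acetyltransferase) was at 11.2, 11.82, 10.44 and 10.26 in the prieurianin arm, 12.77, 13.87, 11.99 and 11.78 in the DMSO arm and 13.09, 13.88, 12.45 and 11.96 in the untreated arm. Each prieurianin array was below both controls of its time (-1.79 ± 0.1, adjusted p = 2e-05). Acadm, a medium-chain dehydrogenase, and Etfb, an electron carrier, differed by -1.75 ± 0.21, adjusted p = 0.00069 and -0.91 ± 0.13, adjusted p = 0.0017. At 192 h Crat lay 2.58 above the controls.

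The breakdown of branched-chain amino acids, which feeds lipid synthesis in adipocytes, had the highest share of lower genes among these mitochondrial lists. Of 19 genes, 15 were lower and 1 higher, a median of -0.88 against 0.01 over all genes. The count of lower genes was 15 without 96 h, 10 without 144 h, 8 without 240 h and 11 without 288 h, and 1 with the 192 h arrays. Bcat2, the mitochondrial aminotransferase that opens the pathway, was at 12.37, 12.68, 11.65 and 11.76 with prieurianin, 13.33, 14.25, 13.31 and 13.45 with DMSO and 13.77, 14.49, 13.93 and 13.34 in untreated cells. The groups did not overlap (-1.62 ± 0.14, adjusted p = 0.00013). Bcat1, its cytosolic counterpart, was the 1 that rose, at 11.32, 11.42, 12.41 and 12.31 on the prieurianin arrays, against 10.17, 9.19, 11.06 and 10.94 on the DMSO arrays and 9.55, 9.04, 10.67 and 10.85 on the untreated arrays. Here too the groups did not overlap (1.68 ± 0.15, adjusted p = 0.00016). The prieurianin arrays were thus low for one aminotransferase and high for the other at each of the 4 times, and at 192 h the differences were 0.16 and -1.43. Dbt, a subunit of the branched-chain ketoacid dehydrogenase, differed by -1.37 ± 0.19, adjusted p = 0.0017.

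Of 20 genes of pyruvate use and the TCA cycle 9 were lower and 0 higher, and of 21 respiratory chain genes 7 were lower and 0 higher, medians of -0.26 and -0.22. The lower counts without 144 h were 5 and 3, without 240 h 6 and 3, and with the 192 h arrays 0 and 0. Pcx (pyruvate carboxylase) differed by -1.81 ± 0.12, adjusted p = 4.5e-05 and Idh3a (a subunit of isocitrate dehydrogenase) by -1.11 ± 0.11, adjusted p = 0.00023. Ndufa9 and Ndufv1, subunits of complex I, differed by -0.69 ± 0.12, adjusted p = 0.0043 and -0.59 ± 0.09, adjusted p = 0.0028.

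**Figure D4:**
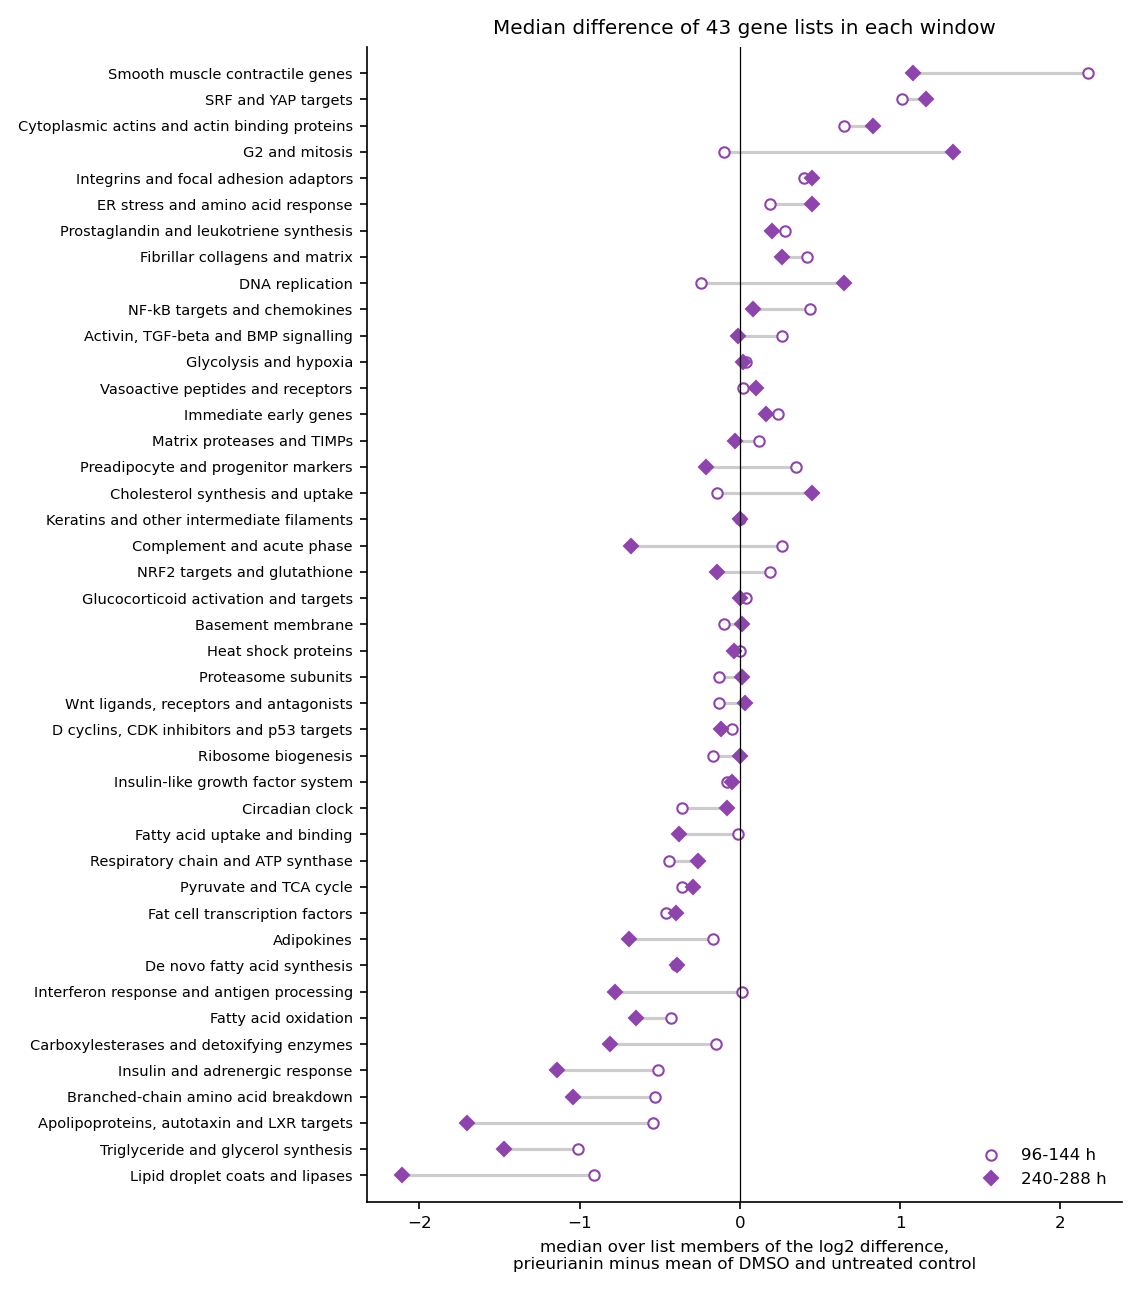
Median log2 difference, prieurianin minus the mean of both controls, of 43 gene lists (x axis, log2 units; one row per list), open circles for 96-144 h and filled diamonds for 240-288 h. Contractile genes lie at 2.17 and 1.08, droplet genes at -0.91 and -2.11, and G2 and mitosis genes at -0.10 and 1.33.

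Apolipoproteins, autotaxin and LXR targets were lower with prieurianin. Of 11 tested, 7 were lower over the 4 times and 0 higher (median -1.12; 4 without 240 h or 288 h, 5 with 192 h), with 3 lower at 96-144 h (0 without 96 h or 144 h and with 192 h) and 10 at 240-288 h (5 without 288 h, 6 with 192 h). Apod, a lipocalin, was at 12.97, 12.08, 7.84 and 7.61 in the prieurianin arm, 13.36, 11.42, 13.03 and 12.65 in the DMSO arm and 13.66, 12.12, 13.39 and 12.81 in the untreated arm. The arms were close at 96 and 144 h and stood far apart at 240 and 288 h, a window difference of -5.13 ± 0.29, adjusted p = 0.00099. Apoc1, a small apolipoprotein, differed by -0.66 at 96-144 h and -4.55 at 240-288 h (-3.88 ± 0.27, adjusted p = 0.0015 between windows), and did not pass over the 4 times without 240 h or 288 h. Enpp2 (autotaxin) and Apoe differed by -1.98 ± 0.3, adjusted p = 0.0023 and -1.92 ± 0.26, adjusted p = 0.0015 over the 4 times.

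Of 15 carboxylesterases and detoxifying enzymes 7 were lower and 0 higher (5 without 240 h or 288 h and with 192 h). Ces1f was at 10.99, 12.03, 9 and 10.34 with prieurianin, 13.15, 14.18, 13.42 and 13.83 with DMSO and 13.34, 14.02, 14.1 and 14.48 in untreated cells (-3.22 ± 0.39, adjusted p = 0.0007) and was also lower at 192 h (-2.53). Cyp2f2 and Aox1, an oxidase of aldehydes and drugs, differed by -2.44 ± 0.41, adjusted p = 0.0037 and -1.98 ± 0.3, adjusted p = 0.0022. Ces3 differed by -3.69 ± 0.68, adjusted p = 0.0057 and was lost without 240 h. Sult1a1, a sulfotransferase, was at 10.92, 10.75, 6.88 and 5.74 on the prieurianin arrays, against 11.73, 12.35, 13.53 and 12.5 on the DMSO arrays and 11.75, 12.17, 13.45 and 12.24 on the untreated arrays. It passed over the 4 times (-3.89 ± 0.9, adjusted p = 0.015) but not without 240 h or 288 h, and its window difference was -5.45 ± 0.24, adjusted p = 0.00061.

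The remaining large falls were Dnmt3a (a DNA methyltransferase, -3.02 ± 0.48, adjusted p = 0.0027), Mrap (the accessory protein of Mc2r, -3 ± 0.35, adjusted p = 0.00057), Cldn15 (a claudin, -2.94 ± 0.2, adjusted p = 4.5e-05) and Gsta3 (a glutathione transferase, -2.93 ± 0.3, adjusted p = 0.00029). Cldn15 was at 10.46, 10.12, 9.38 and 9.13 in the prieurianin arm, 12.48, 12.86, 12.8 and 12.55 in the DMSO arm and 12.61, 12.97, 12.78 and 12.66 in the untreated arm, below all controls. At 192 h it lay 1.46 above the controls, and Dnmt3a 1.28 above.

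Genes of mitosis were higher with prieurianin in the later window. Of 22 tested, 0 were higher and 1 lower at 96-144 h (median -0.10), 20 were higher and 0 lower at 240-288 h (median 1.33), and the window difference was positive and called for 20 (median 1.45). That last count was 0 without 96 h, 2 without 144 h, 8 without 240 h and 0 without 288 h, and 16 with the 192 h arrays. The 240-288 h count was 19 without 240 h, 11 without 288 h and 19 with 192 h. Bub1b, a checkpoint kinase, was at 9.73, 10, 10.47 and 11.58 with prieurianin, 10.63, 10.54, 8.6 and 9.16 with DMSO and 10.97, 10.48, 9.48 and 9.97 in untreated cells. The prieurianin array was below both controls at 96 and 144 h and above them at 240 and 288 h (2.51 ± 0.28, adjusted p = 0.0066 between windows). Top2a, the topoisomerase of dividing cells, was at 11.08, 10.57, 10.95 and 12.03 on the prieurianin arrays, against 11.54, 11.41, 9.59 and 10.05 on the DMSO arrays and 12.03, 11.18, 9.72 and 10.17 on the untreated arrays. The window difference of Top2a was 2.32 ± 0.28, adjusted p = 0.0081. The controls of both genes were lower at 240 and 288 h than at 96 and 144 h, and the prieurianin arm was highest at 288 h.

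Over the 4 times only 2 mitosis genes passed, Tpx2 (a spindle assembly factor) at 0.89 ± 0.21, adjusted p = 0.016 and Ube2c (a ubiquitin ligase partner of the anaphase complex) at 0.8 ± 0.2, adjusted p = 0.022, and neither did without 240 h or 288 h. Of 23 DNA replication genes, 4 were lower and 0 higher at 96-144 h (0 lower without 96 h, 1 without each other time, 2 with 192 h), and 16 were higher and 0 lower at 240-288 h (5 without 240 h, 2 without 288 h, 13 with 192 h, 9 under median centring and 7 as deposited). The window difference was called for 13 (0 without 96, 240 or 288 h, 3 without 144 h, 8 with 192 h). Rrm2, a subunit of ribonucleotide reductase, was at 10.83, 10.76, 11.58 and 11.59 in the prieurianin arm, 11.85, 11.07, 9.65 and 9.85 in the DMSO arm and 11.93, 11.04, 10.16 and 10.59 in the untreated arm. It was below both controls at 96 and 144 h and above both at 240 and 288 h (2.2 ± 0.27, adjusted p = 0.0082).

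Several other genes with the most positive window differences also act in division: Ncaph (a condensin subunit, 2.66 ± 0.26, adjusted p = 0.0054), Cenpi (a kinetochore protein, 2.28 ± 0.27, adjusted p = 0.0081), Tedc1 (a centriole protein, 2.79 ± 0.52, adjusted p = 0.031) and Ckap2l (a spindle protein, 2.29 ± 0.28, adjusted p = 0.0084). Tedc1 was at 7.24, 7.02, 9.95 and 8.22 with prieurianin, 7.29, 7.63, 6.44 and 6.62 with DMSO and 7.67, 7.46, 6.82 and 6.86 in untreated cells. The 240 h prieurianin array was highest. Krt16, a keratin, was at 7.72, 7.71, 7.46 and 6.78 on the prieurianin arrays, against 8.88, 7.6, 5.44 and 4.77 on the DMSO arrays and 9.04, 7.45, 5.62 and 5.32 on the untreated arrays. The controls dropped after 96 h more than the prieurianin arrays did (2.37 ± 0.42, adjusted p = 0.027). Megf10, an engulfment receptor, was at 6.03, 5.85, 8.26 and 8.82 in the prieurianin arm, 5.94, 6.38, 6.11 and 6.5 in the DMSO arm and 6.03, 5.81, 6.46 and 6.33 in the untreated arm. It was above both controls at each time of the later window (2.29 ± 0.28, adjusted p = 0.0082).

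**Figure D5:**
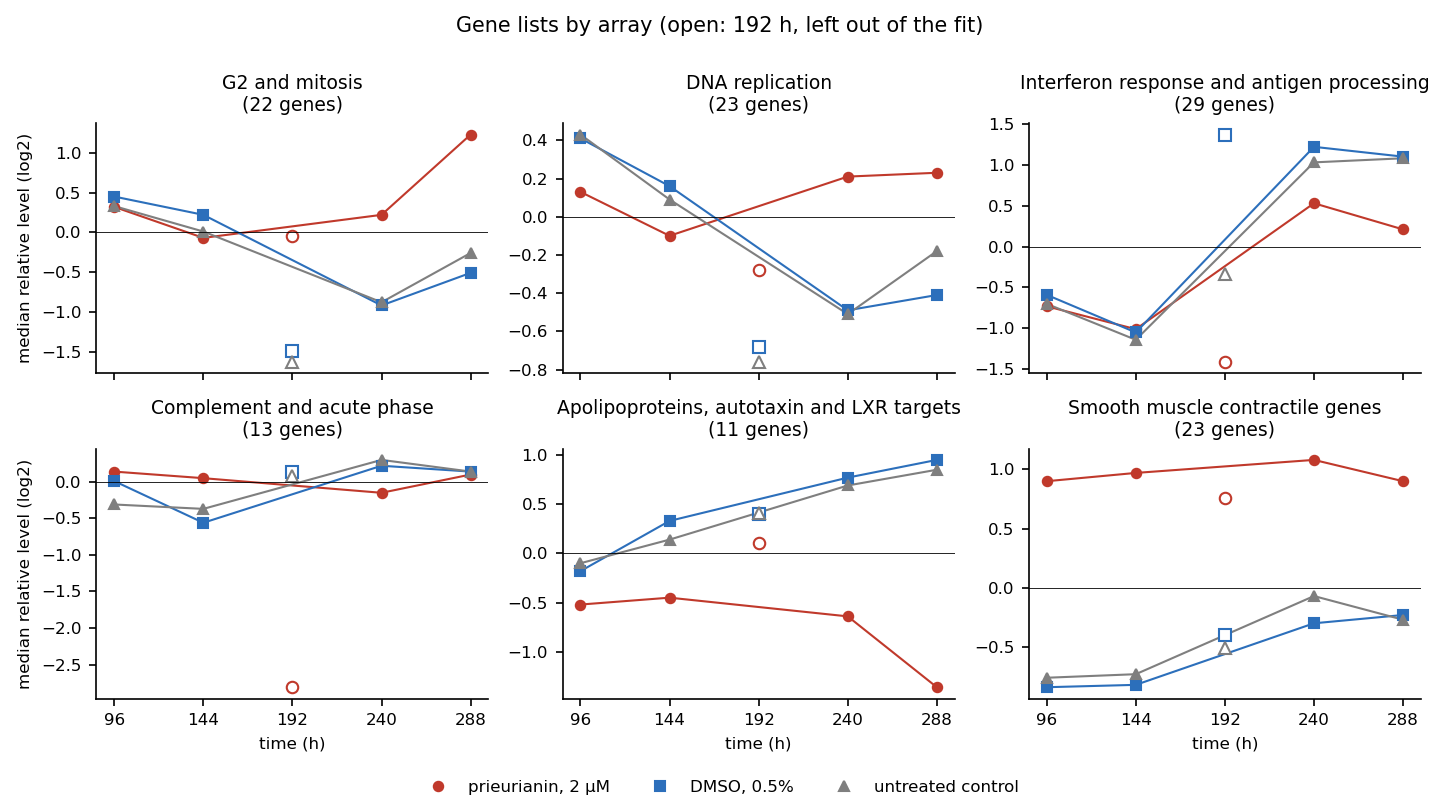
Median log2 level of 6 gene lists on each array, relative to the mean over the arrays of each gene (y axis), against time in hours (x axis), prieurianin first, then DMSO and untreated control. The G2 and mitosis list is at 0.22 and 1.23 on the prieurianin arrays at 240 and 288 h, against -0.92 and -0.51 with DMSO and -0.88 and -0.26 in untreated controls.

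Interferon genes were lower with prieurianin in the later window. Of 29 tested, 3 were higher and 1 lower at 96-144 h (median 0.01; 0 and 0 without 96 h or 144 h and with 192 h, 1 and 0 without 240 h or 288 h), and 0 higher and 18 lower at 240-288 h (median -0.78; 12 without 240 h, 3 without 288 h, 9 with 192 h). The window difference was negative and called for 8, and for 0 without 96, 144 or 288 h, 4 without 240 h and 0 with 192 h. Gbp3, a guanylate-binding protein, was at 9.29, 8.94, 10.96 and 10.44 with prieurianin, 8.78, 8.19, 12.54 and 12.22 with DMSO and 8.7, 7.9, 12.18 and 12.06 in untreated cells. The controls were higher at 240 and 288 h by more than the prieurianin arrays were (-2.27 ± 0.2, adjusted p = 0.0044). Over the 4 times 9 were lower, 2 without 240 h or 288 h and 2 with 192 h, with Psmb9 (an immunoproteasome subunit) at -0.67 ± 0.09, adjusted p = 0.00089. A further alternative, chosen after seeing the data, added the 192 h controls without the 192 h prieurianin array. There 1 was lower over the 4 times, 8 were lower in the later window and 0 had a called window difference. The 2 controls themselves were apart at 192 h, where the list's median level was -1.41 on the prieurianin array, 1.37 on the DMSO array and -0.34 on the untreated array.

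In the complement and acute phase list 6 of 13 were higher and 2 lower at 96-144 h, and 0 higher and 6 lower at 240-288 h. The 6 higher became 1, 0, 2 and 2 without 96, 144, 240 and 288 h in turn, 0 with the 192 h arrays, 3 under median centring and 1 as deposited. The later 6 lower were 3 without 288 h and 4 with 192 h. The window difference was negative and called for 7, for 0 without 96, 144 or 288 h, 1 without 240 h and 1 with 192 h. C1s1, a protease of the classical pathway, was at 11.91, 11.2, 10.99 and 11.57 on the prieurianin arrays, against 11.1, 9.63, 11.95 and 12.19 on the DMSO arrays and 10.83, 10.45, 12.16 and 12.83 on the untreated arrays. It was above the controls in the earlier and below them in the later window (-2.05 ± 0.31, adjusted p = 0.017). Orm1 and Orm2, acute phase carrier proteins, were lower in both (-1.71 ± 0.13, adjusted p = 7.2e-05 and -1.79 ± 0.27, adjusted p = 0.0022). Itih4, an acute phase inhibitor chain, was at 6.78, 7.25, 6.54 and 6.29 in the prieurianin arm, 6.24, 7.61, 11.24 and 11.66 in the DMSO arm and 6.33, 7.29, 11.75 and 11.27 in the untreated arm. The controls climbed after 144 h and the prieurianin arrays did not (-5.22 ± 0.33, adjusted p = 0.0013). Ccl6, a chemokine, was at 9.63, 8.88, 6.28 and 6.76 with prieurianin, 8.43, 8.82, 11.17 and 10.1 with DMSO and 8.58, 8.77, 10.93 and 10.23 in untreated cells. The window difference of Ccl6 was -4.69 ± 0.48, adjusted p = 0.0057. At 192 h the list's median level was -2.81 on the prieurianin array, 0.14 with DMSO and 0.08 in the untreated control.

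Cholesterol synthesis genes were mixed early and higher late. Of 14 tested, 1 was higher and 2 lower at 96-144 h (0 and 0 without 96 h or 144 h and with 192 h) and 7 were higher and 0 lower at 240-288 h (median 0.45; 1 without 240 h, 0 without 288 h, 5 with 192 h, 4 under median centring and 2 as deposited). Cyp51, a sterol demethylase, was at 11.57, 12.01, 10.42 and 10.95 on the prieurianin arrays, against 12.32, 13.7, 9.8 and 9.84 on the DMSO arrays and 12.44, 13.32, 10.11 and 9.76 on the untreated arrays. It was below the controls at 96 and 144 h and above them at 240 and 288 h (1.96 ± 0.33, adjusted p = 0.022). Sc5d, a later enzyme of the pathway, differed by 0.83 ± 0.11, adjusted p = 0.0011 over the 4 times and Sqle (squalene epoxidase) by 0.6 ± 0.13, adjusted p = 0.011; Sqle was lost without 144 h, 240 h or 288 h. Under median centring and with the values as deposited the list's median over the 4 times was -0.07 and -0.12, against 0.05.

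Signalling genes around activin and TGF-β were split. Of 25 tested, 12 were higher and 5 lower (7 and 3 without 96 h, 8 and 2 without 144 h, 6 and 1 without 240 h, 6 and 3 without 288 h, 3 and 1 with 192 h). Inhba, a chain of activin A, was at 8.78, 10, 11.07 and 11.03 in the prieurianin arm, 7.92, 8.42, 7.81 and 9.09 in the DMSO arm and 7.81, 8.19, 8.2 and 9.15 in the untreated arm (1.9 ± 0.27, adjusted p = 0.0018), above both controls at each time. Id2 (an inhibitor of helix-loop-helix factors) and Grem1 (a BMP antagonist) differed by 1.11 ± 0.18, adjusted p = 0.0035 and 1.04 ± 0.25, adjusted p = 0.018, while Tgfbr2, a TGF-β receptor, differed by -0.74 ± 0.18, adjusted p = 0.017. Grem1 did not pass without 96 h or 288 h, nor Tgfbr2 without 240 h or 288 h.

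Of 20 Wnt pathway genes 5 were higher and 2 lower, 25% and 10% against 10.4% and 11% of all genes. The list median was -0.03, against 0.01 over all genes. The counts were 2 and 0 without 240 h, 2 and 2 without 288 h, and 3 and 1 with 192 h. Among the higher members, in limma, the receptor Fzd7 differed by 0.96 ± 0.13, adjusted p = 0.0015 and the secreted regulator Sfrp2 by 0.79 ± 0.12, adjusted p = 0.0024. Among 17 preadipocyte and progenitor markers 4 were higher and 1 lower, 23.5% and 5.88%, with a list median of 0.05. Those counts were 1 and 0 without 144 h or 240 h, and 2 and 0 with 192 h. The lower one was Pdgfra, a receptor of progenitors (-0.74 ± 0.21, adjusted p = 0.033 in limma), lost without 96 h, 144 h or 240 h. Dlk1 (Pref-1, which falls in differentiation) had a difference of -0.45 that did not pass over the 4 times (adjusted p = 0.18). Its levels were 15.63, 15.22, 14.45 and 14.54 with prieurianin, 15.52, 14.93, 15.67 and 15.55 with DMSO and 15.55, 15.11, 15.29 and 15.65 in untreated cells. It was lower with prieurianin in the later window (-1.04, adjusted p = 0.002).

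In the insulin-like growth factor list 1 of 12 was higher and 3 lower, 8.33% and 25% against 10.4% and 11% of all genes. The counts were 1 and 1 without 240 h, 2 and 1 without 288 h, and 0 and 0 with 192 h. Htra1, a protease that cuts binding proteins of the family, differed by 1.89 ± 0.24, adjusted p = 0.00092, Igfbp5 by -1.65 ± 0.15, adjusted p = 0.00015 and Igfbp4 by -1.12 ± 0.25, adjusted p = 0.013, the last lost without 240 h or 288 h. Igfbp5 lay 4.43 above the controls at 192 h. Of 11 vasoactive genes 3 were higher and 1 lower (1 and 0 with 192 h). Adm (adrenomedullin) was at 12.94, 14.09, 14.39 and 14.6 on the prieurianin arrays, against 11.23, 11.01, 11.9 and 12.39 on the DMSO arrays and 10.83, 11.53, 12.49 and 12.51 on the untreated arrays. The groups did not overlap (2.27 ± 0.17, adjusted p = 7.3e-05), but the difference was -2.44 at 192 h. Nppb (brain natriuretic peptide) differed by 1.19 ± 0.2, adjusted p = 0.0032 and Ramp2, a coreceptor for adrenomedullin, by -1.16 ± 0.17, adjusted p = 0.0021.

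Hsd11b1, which regenerates active glucocorticoid in adipocytes, was at 11.49, 11.82, 12.09 and 12.3 in the prieurianin arm, 12.83, 13.52, 14.19 and 14.54 in the DMSO arm and 12.99, 13.52, 14.21 and 14.69 in the untreated arm. Every prieurianin array was below all controls (-1.89 ± 0.14, adjusted p = 6.4e-05), and the 192 h array was too (-1.07). In its list of 12, 2 were higher, led by the kinase Sgk1 (1.38 ± 0.15, adjusted p = 0.00039), and 3 lower (1 and 1 without 240 h and with 192 h, 2 and 1 without 144 h). Of 14 clock genes 4 were lower and 0 higher (2 without 144 h or 240 h, 0 with 192 h), with Per3 (lost without 144 h, 240 h or 288 h) at -0.94 ± 0.2, adjusted p = 0.0093 and Tef at -0.86 ± 0.11, adjusted p = 0.001.

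Of 16 NF-κB targets and chemokines 3 were higher and 1 (Vcam1, -0.53, lost without 144 h, 240 h or 288 h) lower, against 4 and 0 without 240 h or 288 h and 0 and 1 with 192 h. Ptgs2 (COX-2) was at 10.21, 10.85, 11.62 and 12.27 with prieurianin, 9.08, 8.72, 8.54 and 9.42 with DMSO and 8.75, 8.91, 8.72 and 9.46 in untreated cells. The groups did not overlap (2.29 ± 0.24, adjusted p = 0.00037). Il6 differed by 1.84 ± 0.28, adjusted p = 0.0023 and Ccl7 by 0.78 ± 0.13, adjusted p = 0.0037. At 192 h they were -1.58, -2.13 and -4.64. Of 10 prostaglandin and leukotriene genes 3 were higher and 2 lower (2 and 2 without 240 h or 288 h, 1 and 2 with 192 h), with Pla2g4a, which releases arachidonate, at 1.1 ± 0.16, adjusted p = 0.0019 and Ltc4s, the leukotriene C4 synthase, at -1.08 ± 0.13, adjusted p = 0.00072. Among 22 immediate early genes 6 were higher and 1 lower (5 and 3 without 240 h, 1 and 1 with 192 h): Ier3 differed by 1.67 ± 0.15, adjusted p = 0.00013, Fos by 1.01 ± 0.12, adjusted p = 0.00078 and Egr1, the 1 that fell, by -1 ± 0.13, adjusted p = 0.00089.

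Stress and housekeeping lists varied in their share of calls, against 10.4% of all genes called higher and 11% lower. The share was 29.4% higher for ER stress genes, 31.6% lower for NRF2 targets and 8.33% lower for proteasome subunits. Of 17 ER stress genes 5 were higher and 1 lower (2 and 0 without 144 h, 3 and 1 without 240 h or 288 h, 1 and 1 with 192 h), with the chaperone Hspa5 at 0.74 ± 0.14, adjusted p = 0.0066, lost without 240 h. Of 11 heat shock genes 2 were higher and 2 lower, of 19 NRF2 targets 3 and 6, of 20 glycolysis and hypoxia genes 3 and 1, of 24 proteasome subunits 0 and 2, of 17 ribosome biogenesis genes 1 and 2, of 16 D cyclins, CDK inhibitors and p53 targets 2 and 2, and of 9 keratins and other intermediate filaments 2 and 2. Leaving out a single time moved these counts by at most 3 genes, the largest being NRF2 targets without 144 h (0 and 3), and with the 192 h arrays they were 2 and 2, 0 and 3, 2 and 1, 0 and 2, 1 and 2, 0 and 0, and 1 and 1. Slc2a1 (GLUT1, the basal glucose transporter) was at 14.86, 15.58, 15.61 and 15.25 on the prieurianin arrays, against 13.69, 13.4, 13.66 and 13.94 on the DMSO arrays and 13.54, 13.84, 13.87 and 13.8 on the untreated arrays, above all controls (1.61 ± 0.14, adjusted p = 0.00015), the opposite of Slc2a4. Cdkn2c, a CDK inhibitor that rises in adipocytes, differed by -1.72 ± 0.21, adjusted p = 0.00076, Gadd45a, a growth arrest gene, by 1.24 ± 0.18, adjusted p = 0.0021 and Krt18, a simple epithelial keratin, by -2.1 ± 0.35, adjusted p = 0.0032. Gapdh was at -0.25 (adjusted p = 0.52).

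Defining markers of cell types were read as summed normalised intensity. Of 8 white adipocyte markers tested, 7 were lower and 0 higher (5 with 192 h), and the summed level ran between 10900 and 53700 on the prieurianin arrays, 107000 and 202000 with DMSO and 107000 and 197000 in untreated controls. It was 243000 on the 192 h prieurianin array. Of 8 smooth muscle and pericyte markers 4 were higher and 0 lower, with sums of 82100 to 103000, 3810 to 28000 and 4800 to 28800 in the same order, and Rgs5 was dim. Those 4 (Actg2, Acta2, Smtn and Lmod1) are also in the contractile list, and the other 4 tested did not pass. Among fibroblast and preadipocyte markers 2 of 7 were higher (Col1a1 and Thy1) and 1 lower (Pdgfra), 28.6% and 14.3% against 10.4% and 11% of all genes. The counts were 1 and 0 without 144 h and with 192 h. At 240-288 h 1 was higher and 2 lower. Their sums were 138000 to 160000, 95200 to 174000 and 98100 to 185000.

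Of 9 macrophage markers 1 was higher (Aif1, 0.86), a share of 11.1%, near the 10.4% of all genes. Adgre1, Ptprc, C1qb and Tyrobp were under the lower quartile of gene probes, and the sums were 1830 to 5170, 1480 to 3970 and 1540 to 3830. Of 5 skeletal muscle markers 1 was higher (Mylpf, 0.8), with Myod1, Myf5, Ckm and Myh3 dim and sums of 1540 to 3200, 1060 to 1590 and 1190 to 1690. Brown adipocyte (3 tested), bone and cartilage (5), endothelial (4) and epithelial markers (3) had 0 called in limma over the 4 times, and Ucp1, Runx2, Cdh5, Kdr, Epcam and Cdh1 were dim. The part of these cell types in the gene lists above was not tested.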

How the data were processed

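Total RNA from 3T3-L1 cells was amplified with oligo(dT), labelled with Cy5 and hybridised to 1-colour Mouse OneArray slides, per the labels. The deposited intensity values ran between -83 and 65497, with 0.47% below 0; the scanner and any scaling by the authors are not given in the sources used here, and the unit was judged from the values. All 54 arrays were quantile normalised, floored at 0 and taken as log2(value + 16). Of 29922 probes, 21020 had 1 gene symbol; a gene took its brightest probe on average, and 12792 of 16637 genes had a mean above the lower quartile of gene probes (6.07). Saturated means within 50 units of an array's highest value. The limma fit (limma 3.58.1, R 4.3.3) had time and arm as terms, with 6 residual degrees of freedom, or 4 with an arm effect per window, and Benjamini-Hochberg adjustment at 0.05. The fit was also run on simulated arrays with independent noise. That run cannot speak for p-values where neighbouring times are related. Named genes were the 15 largest lasting rises and falls, the 8 most positive and negative window differences, a panel of adipocyte genes and, per list, the 3 called members with the largest difference and the one with the largest window difference. Lasting means an adjusted p under 0.05 in limma and a prieurianin array above (for falls, below) both controls at each of the 4 times. For those genes that pattern was fixed by the choice. Genes given as a list's exception, and the markers named, were chosen after their values were seen. The comparison, members and lists were chosen with earlier results of these data known. Alternatives covered scaling, offset, filter, probe choice, block, controls, spread, moderation, the 192 h arrays and each time left out.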

Additional observations from a re-analysis of the deposited data

Results flagged for a closer look

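In 2 of 41 genes checked, 1 of the 4 prieurianin arrays stood apart from the other 3, and chance gives about 1 such group in 20. The level of Acta1 was 8.12 at 240 h and that of Cd36 was 9.82 at 144 h.

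The prieurianin difference itself differed between 240-288 h and 96-144 h for the genes below (limma, later minus earlier window). It was more positive for Tedc1 (2.79), Ncaph (2.66), Bub1b (2.51), Krt16 (2.36), Top2a (2.32), Ckap2l (2.29), Megf10 (2.28) and Cenpi (2.28). It was more negative for Sult1a1 (-5.45), Itih4 (-5.22), Apod (-5.13), Ccl6 (-4.69), Cfd (-4.56), Ces3 (-4.05), Apoc1 (-3.88) and Gpd1 (-3.80). Cfd was saturated on both controls at 240 and 288 h, so its later difference is a lower bound.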

How the results depend on the processing

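Of 7 gene counts under 19 alternatives, 90 stayed within 1.5 times and 40 did not; the cause was not tested. With the 192 h arrays, which then belong to the later window, the counts were 1019 against both controls, 246 against DMSO and 947 against the untreated control. In that setting they were 128 at 96-144 h, 1092 at 192-288 h and 183 for the window difference. With the 192 h controls but without the 192 h prieurianin array, an alternative chosen after seeing the data, the count against both controls was 2945. Without the time block they were 1347, 711, 983, 720 and 202 (240-288 h stayed within 1.5 times). With the spread shared over 51 arrays they were 4287, 3619, 3908, 2258 and 1748, and 445 between the controls. The window difference also gave 281 as deposited, 435 without a filter and 1255 with a trended, robust spread. Leaving out 1 time gave 1159 to 2298 against both controls, 550 to 1622 against DMSO, 793 to 1681 against the untreated control, 0 to 108 between the controls, 114 to 626 at 96-144 h, 492 to 2516 at 240-288 h and 0 to 146 for the window difference, where fewer arrays leave fewer degrees of freedom. Of the values of single named genes, 3153 kept their direction and side of the threshold, 468 no longer passed, 5 newly passed and 2 changed sign: Ccl7 was -0.306 with the 192 h arrays, and Gapdh, which did not pass, ran between -0.472 and 0.153 over the times left out (0.153 without 288 h). Arms were matched by time, the block of the fit, and beyond that no paired analysis was possible because the replicate numbers only name samples. With 1 array per arm and time, precision is limited by the number of arrays, and saturated probes give bounds only.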
